A study of Mus musculus with 12 samples.

Results

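The transcription factors of naive pluripotency are a small set of DNA-binding proteins and their partners that keep mouse embryonic stem cells (ESCs) in the state of the preimplantation epiblast. The 10 genes described here, Nanog, Esrrb, Klf2, Klf4, Tfcp2l1, Tbx3, Zfp42, Prdm14, Dppa3 and Nr5a2, were chosen by name from the 25759 genes listed in each of 12 tables, and all 10 were found in every table and passed the filter on low counts in every comparison. The libraries came from HATX3 ESCs, a mouse line of haploid origin that is now diploid, in which doxycycline turns on Xist through a transactivator at Rosa26. Wild-type (WT) libraries came from the parental cells, a polyclonal line, and carry the numbers 1, 2 and 3. The ΔCdk8 libraries (genotype Cdk8-/-) came from clones 8, 11 and 15, each isolated as a clone after a small CRISPR/Cas9 deletion around the Cdk8 start codon. Every line carries the inducible Xist system, and each was sampled uninduced and after 48 h of Xist induction with doxycycline, which gives 4 groups of 3 libraries. Every induced library received doxycycline, so effects of the drug and of Xist RNA cannot be told apart. Every ΔCdk8 library came from an edited clone and every wild-type library from the parental line. Effects of the genotype and of isolating clones therefore cannot be told apart in any comparison between genotypes. Xist is not listed in the tables, so whether it was induced, and to the same level in both genotypes, was not tested here.

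In ESCs, the cytokine LIF acts through STAT3 on genes such as Klf4 and Tfcp2l1, and Wnt signals or inhibition of GSK3 relieve the repressor Tcf7l1 from genes such as Esrrb. FGF signals acting through ERK move the cells towards the formative and primed epiblast, and inhibition of Mek blocks that step. Naive factor levels therefore depend on the culture medium. The cells were kept in serum with LIF, with inhibitors of Gsk3β and Mek used for maintenance culture, and whether those inhibitors were present in the sequenced cultures is not stated. Cdk8 is a kinase of the Mediator complex, which links DNA-bound factors to RNA polymerase II.

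The proximal promoters are shown for 3 members whose levels differed most between groups among those with a sequence, so that the letters bound by other pluripotency factors can be seen beside the values. RefSeq's table for GRCm38.p6 held 7 of the 10 members. The 250 bases before the annotated start lie at chr6:122707239-122707488 for Nanog, chr12:86360867-86361116 for Esrrb and chr1:118627695-118627944 for Tfcp2l1, all on the forward strand. They are written from 5′ to 3′ with motif matches in capitals, and no match overlapped another.
Nanog: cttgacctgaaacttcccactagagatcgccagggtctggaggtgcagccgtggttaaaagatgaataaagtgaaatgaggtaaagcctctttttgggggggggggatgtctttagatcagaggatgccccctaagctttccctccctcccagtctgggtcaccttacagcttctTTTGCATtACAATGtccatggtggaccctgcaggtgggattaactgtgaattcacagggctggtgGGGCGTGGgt
Esrrb: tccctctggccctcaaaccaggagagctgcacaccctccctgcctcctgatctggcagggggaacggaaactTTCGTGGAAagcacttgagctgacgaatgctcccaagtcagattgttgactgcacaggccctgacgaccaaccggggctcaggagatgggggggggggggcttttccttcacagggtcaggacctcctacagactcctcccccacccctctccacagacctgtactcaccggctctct
Tfcp2l1: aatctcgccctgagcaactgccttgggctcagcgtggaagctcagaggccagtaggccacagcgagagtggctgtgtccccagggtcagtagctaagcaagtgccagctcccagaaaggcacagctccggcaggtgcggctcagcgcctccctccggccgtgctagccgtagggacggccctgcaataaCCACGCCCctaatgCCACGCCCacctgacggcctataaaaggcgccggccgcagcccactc
Motifs were searched on both strands in the 250 bases before the start. The letters were TTTGCAT for the octamer factors, ACAATG for SOX, TTCNNNGAA for STAT, GGGNGTGG for KLF, AAGGTCA for the monomer site of ESRRB and TCAAAG for TCF. In the Nanog promoter, the octamer lay 75 to 69 bases before the start and the SOX match 67 to 62 bases before it, with a KLF match at 10 to 3 bases. The octamer was present in 4.12% of 32851 promoters of this length and in 2 of the 7 members, Nanog and Zfp42. SOX letters were present in 10.7% of all promoters and, among the members, in that of Nanog. A STAT match lay 178 to 170 bases before the start of Esrrb, and 7.02% of all promoters held one. Tfcp2l1 had 2 KLF matches, at 61 to 54 and 47 to 40 bases. KLF letters were found in 4 of the 7 members (Nanog, Nr5a2, Tfcp2l1 and Zfp42) and in 15.9% of all promoters. Neither the ESRRB monomer site nor the TCF letters were found in the 7 windows, against 4.08% and 13.8% of all promoters.

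Library depth ranged from 22170087 to 60798578 reads on genes, of which 4.77% to 7.59% fell on introns. The members had between 48 (Prdm14) and 28079 (Esrrb) reads per library. Cdk8 was listed at 64.2 to 74.2 TPM (exon reads per exon length, scaled to the same total in every library) in uninduced wild-type libraries and at 34.4, 56.8 and 85.3 TPM in clones 8, 11 and 15. Clones 8 and 11 thus lay below and clone 15 above every uninduced wild-type library. Neither these exon reads nor reads over the whole gene show the deleted part, so they do not check the genotype. The 2 measures differed in sign. Over the whole gene, the edgeR log2 fold change of Cdk8 was 0.32 (s.e. 0.244) between uninduced and -0.65 (s.e. 0.650) between induced genotypes. Mean TPM in ΔCdk8 and wild-type libraries was 58.8 and 69.3 uninduced, and 58.7 and 52.0 induced. Without clone 15, the log2 fold changes of Nanog, Tfcp2l1 and Tbx3 between uninduced genotypes were 1.70, 2.04 and 2.65. The 6 ESC markers (Pou5f1, Sox2, Utf1, Tdgf1, Sall4 and Fbxo15) summed to between 1801 and 3544.5 TPM in every library, and none of them stayed under 1 TPM. Summed trophoblast markers (Cdx2, Eomes, Gata3, Elf5, Tfap2c and Hand1) spanned 13.2 to 74.0 TPM in uninduced wild-type and 32.8 to 102.6 TPM in uninduced ΔCdk8 libraries. Within that list, Hand1 was at 35.5 TPM in wild-type 1 and under 1 TPM in wild-type 2 and 3. For the 7 primitive endoderm markers the sums were 6.15 to 7.55 TPM in uninduced wild-type and 5.70 to 11.6 TPM in uninduced ΔCdk8 libraries. One of them, Gata4, was at 1.13, 0.164 and 0.536 TPM in wild-type 1, 2 and 3 and at 1.82, 2.37 and 5.42 TPM in clones 8, 11 and 15, without overlap. Such separation upwards was seen for 16.3% of genes tested. The other markers of the list overlapped between uninduced genotypes. Sox7 averaged 2.07 TPM in wild-type and 1.62 TPM in ΔCdk8 libraries, and Dab2 2.98 and 3.01 TPM. Thy1 made up most of the fibroblast sums, which were 8.66 to 17.6 TPM in uninduced wild-type and 19.7 to 29.3 TPM in uninduced ΔCdk8 libraries. Two-cell-like markers (Zscan4 genes and others) summed to at most 1.51 TPM in uninduced wild-type libraries and to between 0.516 and 15.4 TPM in uninduced clones. Mesendoderm sums (T, Mixl1, Gsc and Eomes) were 2.20 to 4.13 and 4.79 to 14.4 TPM, and neural sums 11.2 to 41.3 and 15.2 to 22.0 TPM, in uninduced wild-type and ΔCdk8 libraries respectively. Eomes, also in the trophoblast list, made up most of each mesendoderm sum. Neural sums were 10.4, 14.1 and 16.0 TPM and fibroblast sums 15.2, 5.54 and 6.02 TPM in induced wild-type 1, 2 and 3. Each of these, and each mesendoderm sum, was below that of its uninduced pair, whereas the other lists did not share a direction. The part of these markers in the results that follow was not tested. In bulk RNA, fewer cells of a type and less RNA per cell cannot be told apart.

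The factors differed widely in level, and the order was not the same in the 4 groups. Among uninduced wild-type libraries, Dppa3 (111.0±39.7 TPM, mean±s.d., n=3), Nanog (102.0±53.7), Zfp42 (95.1±22.9) and Esrrb (72.9±43.0) were the most abundant, and the ranges of neighbours in that order overlapped. Klf4 (41.4±13.5), Tfcp2l1 (22.1±15.4), Klf2 (22.0±8.41) and Nr5a2 (15.5±5.85) followed, again with overlapping ranges. Tbx3 (2.88±0.952) and Prdm14 (1.82±0.952) lay below all of these, and the range of Tbx3 was separate from that of Nr5a2. In induced wild-type libraries Esrrb came first (227.8±18.5 TPM), ahead of Nanog (158.4±49.1), with overlapping ranges. In both ΔCdk8 groups Nanog came first (305.0±106.2 uninduced and 328.0±88.5 induced), and its range was separate from that of Esrrb, which came second (147.3±27.5 and 189.0±28.1). Prdm14 was the lowest of the 10 in every group.

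**Figure D1:**
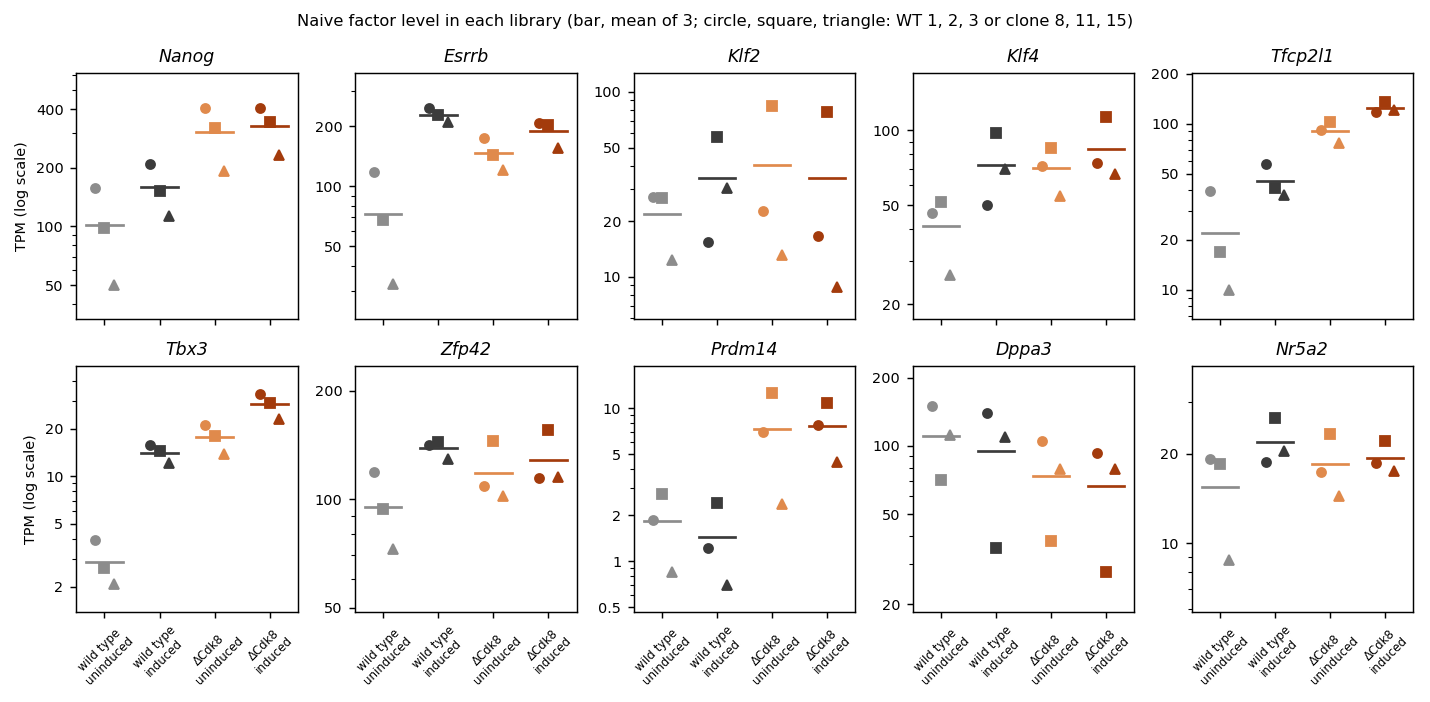
TPM of each naive factor in each of the 12 libraries on a log scale, with the 4 groups on the x axis, the bar at the group mean of 3 and the symbol giving the wild-type number (1, 2, 3) or clone (8, 11, 15). Uninduced wild-type libraries lie below both ΔCdk8 groups for Nanog, Esrrb, Klf4, Tfcp2l1 and Tbx3, and Klf2 and Prdm14 are highest in clone 11 among the clones.

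The first comparison asked how the naive factors stood in ΔCdk8 ESCs before Xist was induced. Nanog, Esrrb, Klf4, Tfcp2l1 and Tbx3 were at a higher TPM in every ΔCdk8 clone than in every wild-type library, whereas the other 5 members overlapped. Such complete separation upwards was seen for 16.3% of the 14646 genes tested and for 5 of the 10 members. As a share of gene reads, which the tests used, Esrrb and Klf4 overlapped between the genotypes. Esrrb had 11223 of 43427118 reads in clone 15 and 8447 of 31520307 in wild-type 1. Klf4 had 2704 of 43427118 reads in clone 15 and 2232 of 35638554 in wild-type 2. None of the 10 passed the threshold (more than 2-fold and an adjusted p under 0.01 in edgeR's quasi-likelihood test), as for all genes, of which 0.0% passed. At an unadjusted p under 0.05, 2982 genes (20.4%) and 4 members were counted in edgeR. By DESeq2, 386 genes passed, 264 of them (1.8%) higher in ΔCdk8 cells, and the members among these were Tbx3 and Tfcp2l1. The median log2 fold change of the 10 was 0.83, against 0.03 over all genes.

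Nanog is the homeodomain factor at the centre of the network. Its TPM was 157.4, 98.4 and 50.2 in wild-type 1, 2 and 3 and 402.6, 320.5 and 191.8 in clones 8, 11 and 15. The lowest clone thus lay above the highest wild-type library, although wild-type libraries alone spanned 3.13-fold. The ratio of the means was 2.99, and the log2 fold change was 1.42 (s.e. 0.447, adjusted p=0.175 by edgeR). Leaving out single libraries gave log2 fold changes from 1.09 to 1.87.

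Tbx3, a T-box factor downstream of phosphoinositide signalling in ESCs, showed the widest separation. It was at 3.93, 2.63 and 2.07 TPM in wild-type and at 21.1, 17.9 and 13.9 TPM in ΔCdk8 libraries, a ratio of 6.13. Its log2 fold change was 2.46 (s.e. 0.317), with an adjusted p of 0.101 in edgeR and of 3.81e-10 in DESeq2. Fitting all 12 libraries together in edgeR gave an adjusted p of 0.00935, past the threshold. Tfcp2l1, a CP2-family factor induced by LIF, was at 39.4, 16.9 and 10.01 TPM in wild-type and at 91.9, 102.1 and 76.7 TPM in ΔCdk8 libraries. For Tfcp2l1 the ratio was 4.08 and the log2 fold change 1.88 (s.e. 0.480), with an adjusted p of 0.147 in edgeR and 0.00341 in DESeq2. With single libraries left out, its log2 fold change ran from 1.52 to 2.60, the highest being that without wild-type 1 (edgeR adjusted p=0.0337).

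Esrrb, an orphan nuclear receptor, was at 118.0, 68.3 and 32.4 TPM in wild-type and at 176.1, 144.6 and 121.3 TPM in ΔCdk8 libraries. The lowest clone exceeded the highest wild-type library by little, and the log2 fold change was 0.86 (s.e. 0.431, edgeR adjusted p=0.290). Klf4, a Krüppel-like factor under LIF and STAT3 control, was at 46.3, 51.7 and 26.2 TPM against 71.6, 84.7 and 54.7 TPM. Its log2 fold change was 0.62 (s.e. 0.315, edgeR adjusted p=0.294).

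Prdm14 and Klf2 depended on the clone. Prdm14, which represses FGF signalling and de novo DNA methyltransferase genes, was at 1.85, 2.75 and 0.849 TPM in wild-type libraries and at 6.95, 12.5 and 2.37 TPM in clones 8, 11 and 15. Clone 15 fell inside the wild-type range, and the log2 fold change of 1.84 (s.e. 0.705) had an edgeR adjusted p of 0.218 and was 1.08 without clone 11. Klf2, a Krüppel-like factor, was at 26.9, 26.7 and 12.3 TPM in wild-type and at 22.8, 84.1 and 13.2 TPM in the clones. Only clone 11 lay outside the wild-type range, and without it the log2 fold change of Klf2 went from 0.80 (s.e. 0.725) to -0.53.

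Zfp42 and Nr5a2 differed little, and Dppa3 was the member with a negative value. Zfp42 (Rex1), a zinc finger protein often used as a reporter of the naive state, was at 118.7, 93.8 and 72.9 TPM against 109.0, 144.7 and 101.9 TPM, with a log2 fold change of 0.29 (95% interval -0.25 to 0.82). Nr5a2, a nuclear receptor that can bind regulatory DNA of Pou5f1, had a log2 fold change of 0.12 (95% interval -0.73 to 0.97). Dppa3 (Stella), which protects DNA methylation in the early embryo, was at 150.2, 70.8 and 112.0 TPM in wild-type and at 104.9, 37.8 and 79.0 TPM in the clones. Its ratio was 0.666 with overlapping groups, and its log2 fold change was -0.77 (s.e. 0.373, edgeR adjusted p=0.279).

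**Figure D2:**
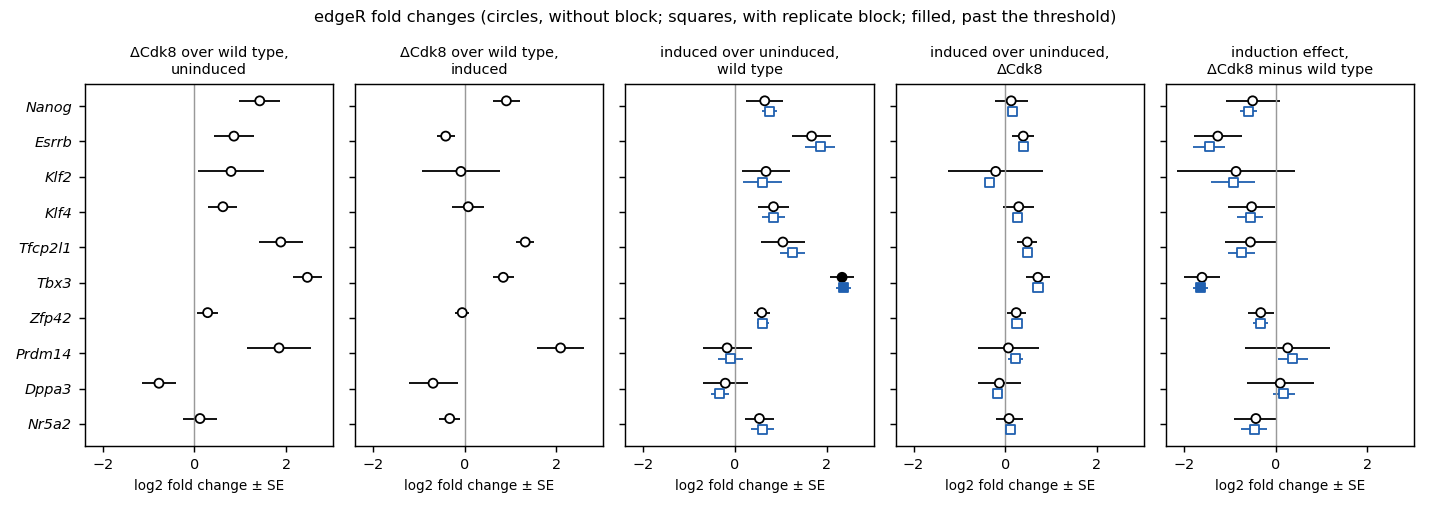
Log2 fold change of each naive factor with its standard error in 5 edgeR comparisons, without the replicate number as a block (circles) and, for the 3 comparisons that share numbers, with it (squares), filled where the threshold was passed. The filled symbols belong to Tbx3, at 2.33 and 2.37 for induction in wild-type cells and at -1.64 for the difference of induction between genotypes.

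The second comparison asked what 48 h of induction did in wild-type cells. It shares the uninduced wild-type libraries with the first comparison, so the values of the comparisons are not independent. Tbx3 rose and was the single member past the threshold, as for 21 of 14006 genes upwards (0.15%) and 162 in either direction. Tbx3 reached 15.6, 14.5 and 12.1 TPM in induced wild-type 1, 2 and 3, a ratio of means of 4.89, with a log2 fold change of 2.33 (s.e. 0.264, edgeR adjusted p=0.0062). The induced and uninduced libraries did not overlap. With the replicate number as a block, the log2 fold change was 2.37 (s.e. 0.164, adjusted p=0.00106), and edgeR then called 553 genes (206, or 1.47%, upwards). Without the block, the call was lost in edgeR when wild-type 2 (log2 fold change 2.20, adjusted p=0.166) or wild-type 3 (2.22, adjusted p=0.121) was left out, where 0 genes were called in all. With the block, it was lost without wild-type 2 (2.26, edgeR adjusted p=0.0145, 44 genes called) and not without wild-type 3 (2.25, edgeR adjusted p=0.00123, 372 genes called).

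Esrrb was next in size. Its induced levels were 246.7, 227.1 and 209.7 TPM, all above the uninduced ones, and the ratio of means was 3.13. The log2 fold change was 1.67 (s.e. 0.424), with an edgeR adjusted p of 0.079, or 0.0142 with the block at a log2 fold change of 1.86. DESeq2 placed Esrrb (adjusted p=0.00131) and Tbx3 past the threshold, with 222 genes (1.59%) upwards. Without wild-type 1, edgeR called 566 genes, and Esrrb (2.15, adjusted p=0.00839) and Tfcp2l1 (1.57, adjusted p=0.00822) were among them. The coefficient of variation of Esrrb between wild-type libraries was 59.0% uninduced and 8.13% induced, whereas that of Klf2 was 38.3% and 61.2%.

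Of the 10 members, 3 had separate TPM ranges upwards (Esrrb, Tbx3 and Zfp42), against 12.1% of genes tested. Zfp42 reached 141.5, 144.5 and 129.5 TPM, with a log2 fold change of 0.58 (s.e. 0.178, edgeR adjusted p=0.126). In 6 of the 10 members the induced library was higher in each of the 3 numbered pairs, against 28.1% of genes tested, and these were Nanog, Esrrb, Klf4, Tfcp2l1, Tbx3 and Zfp42.

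Tfcp2l1 was at 57.1, 40.9 and 37.2 TPM after induction, with pair ratios of 1.45, 2.42 and 3.72 and a log2 fold change of 1.04 (s.e. 0.473, edgeR adjusted p=0.270). Nanog was at 210.1, 152.6 and 112.5 TPM, with pair ratios of 1.34, 1.55 and 2.24 and a log2 fold change of 0.65 (s.e. 0.404). Klf4 had a log2 fold change of 0.84 (s.e. 0.337). For each of these 3 the ratio was smallest in wild-type 1, which had the highest uninduced Nanog, Esrrb and Tfcp2l1. Klf2 had a ratio of 0.577 in wild-type 1 and of 2.12 and 2.46 in wild-type 2 and 3, and Nr5a2 had ratios of 0.978, 1.42 and 2.34. Prdm14 (0.656, 0.868 and 0.822) and Dppa3 (0.929, 0.501 and 0.982) were lower in the induced library of each pair, as were 29.4% of genes tested, with log2 fold changes of -0.17 and -0.21 that did not pass.

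The third comparison asked the same of the ΔCdk8 clones, where the values were smaller. No member passed in edgeR, as for all 14832 genes (0.0%), with 392 genes (2.64%) and 1 member (Tbx3) at an unadjusted p under 0.05, and 36 genes (0.243%) but no member in DESeq2. Tbx3 was at 33.1, 29.1 and 23.0 TPM in induced clones 8, 11 and 15, above every uninduced clone. Its pair ratios were 1.57, 1.63 and 1.66, and its log2 fold change was 0.71 (s.e. 0.269). Tfcp2l1 was at 117.7, 134.5 and 121.1 TPM, again above every uninduced clone, with pair ratios of 1.28, 1.32 and 1.58. Complete separation upwards was seen for 1.63% of genes tested, and Tbx3 and Tfcp2l1 were the members with it.

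Samples of one clone form a pair, and the block removes what differs between clones. With it, 208 genes passed (20 upwards, 0.135%), and no member did. At an adjusted p under 0.01 and any fold, 348 genes upwards (2.35%) and 3 members were counted, namely Tbx3 (log2 fold change 0.71, s.e. 0.0794, adjusted p=4.76e-06), Tfcp2l1 (0.49, s.e. 0.0755, adjusted p=0.00017) and Esrrb (0.39, s.e. 0.0725, adjusted p=0.00117). All 3 stayed under the 2-fold limit. Nanog had pair ratios of 1.01, 1.08 and 1.21 and a blocked log2 fold change of 0.15 (s.e. 0.0732, edgeR adjusted p=0.207), which did not pass. Klf2 was lower in each induced clone (ratios 0.726, 0.921 and 0.673), as was Dppa3. Nanog, Esrrb, Klf4, Tfcp2l1, Tbx3 and Zfp42 were higher in each induced clone, the same 6 members as in wild type. The share of all genes higher in each induced clone was not counted. Prdm14 had ratios of 1.11, 0.865 and 1.88, which do not share a direction.

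An interaction term in a fit of all 12 libraries tested whether induction acted differently in the 2 genotypes. No gene passed in edgeR without the block, 0.0% of 15137 genes, and 587 genes (3.88%) were at an unadjusted p under 0.05. DESeq2 without the block called 33 genes (0.218%), none of them a member. Of the members, 8 had a negative value, that is, a smaller induced-over-uninduced ratio in the clones than in wild type, and the median was -0.51 against 0.00 over all genes. Tbx3 had a difference of -1.61 (s.e. 0.388, adjusted p=0.464). With the block, Tbx3 passed at -1.64 (s.e. 0.165, adjusted p=0.00132), among 33 genes (0.218%) with a negative difference. It did not pass with the block when clone 8 or clone 15 was left out, at adjusted p-values of 0.0165 and 0.0163. The induced-over-uninduced ratio of Tbx3 was 5.11±0.990 in wild-type and 1.62±0.0468 in ΔCdk8 pairs (n=3 each), without overlap. In TPM, its mean went from 2.88 to 14.1 in wild-type and from 17.6 to 28.4 in ΔCdk8 libraries. The ratios and log2 differences thus start from unlike uninduced levels, and a difference of the rise in TPM was not tested.

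Esrrb followed, with a blocked difference of -1.45 (s.e. 0.343, edgeR adjusted p=0.0385). Its ratios were 2.09, 3.33 and 6.47 in wild-type and 1.18, 1.40 and 1.29 in clones 8, 11 and 15. Every ratio of the clones was below every wild-type ratio for 4 members (Tbx3, Esrrb, Nanog and Zfp42), against 13.7% of genes tested. Nanog had a blocked difference of -0.59 (s.e. 0.184, adjusted p=0.0952) and Tfcp2l1 one of -0.74 (s.e. 0.292, adjusted p=0.167). The wild-type ratio of Tfcp2l1 in number 1, 1.45, fell within the range of the clones. Prdm14 and Dppa3 were the members with a positive value, of 0.37 and 0.17 with the block.

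**Figure D3:**
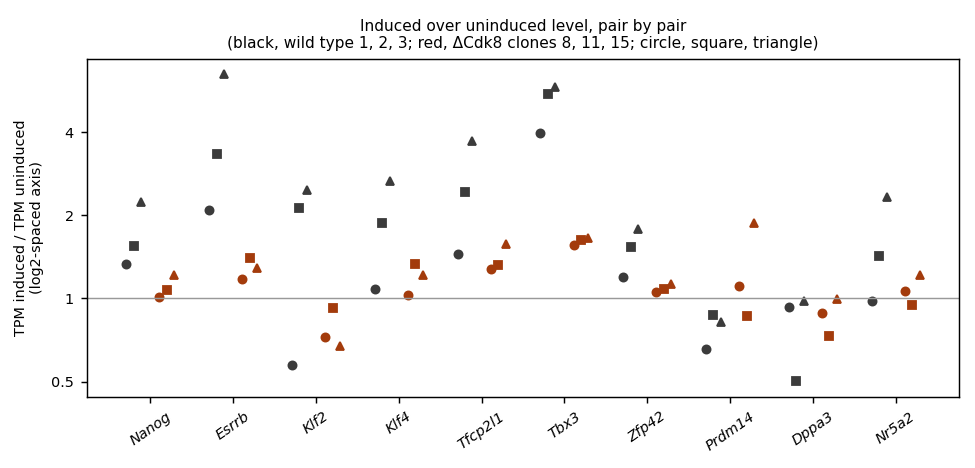
Induced over uninduced TPM of each naive factor in wild-type pairs 1, 2 and 3 (black) and in ΔCdk8 clones 8, 11 and 15 (red), on a log2-spaced axis with a line at 1. The wild-type ratios of Tbx3 lie between 3.98 and 5.84 and those of the clones between 1.57 and 1.66, and the ratios of the genotypes also do not overlap for Esrrb, Nanog and Zfp42. The uninduced mean of Tbx3 was 2.88 TPM in wild-type and 17.6 TPM in ΔCdk8 libraries.

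The last comparison set induced ΔCdk8 against induced wild-type libraries. Nanog, Tfcp2l1, Tbx3 and Prdm14 were higher in every induced clone than in every induced wild-type library, against 18.6% of the 14143 genes tested, and Esrrb was lower in every clone, against 10.1%. No member passed in edgeR (0.0% of all genes, with 3668 genes (25.9%) and 4 members at an unadjusted p under 0.05). DESeq2 called 822 genes, 542 (3.83%) of them higher, and the members among these were Prdm14 and Tfcp2l1. Tfcp2l1 had a log2 fold change of 1.32 (s.e. 0.199), with an adjusted p of 0.0534 in edgeR and 4e-06 in DESeq2.

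Prdm14 was at 1.22, 2.39 and 0.697 TPM in induced wild-type and at 7.70, 10.8 and 4.45 TPM in induced clones. Its log2 fold change of 2.09 had an adjusted p of 0.0754 in edgeR and 0.00143 in DESeq2. Nanog was at 406.9, 344.7 and 232.4 TPM in induced clones, a ratio of 2.07 and a log2 fold change of 0.91 (s.e. 0.296, edgeR adjusted p=0.119). Tbx3 had a ratio of 2.02, where the uninduced ratio had been 6.13. Esrrb was at 207.4, 202.9 and 156.7 TPM in induced clones, with a log2 fold change of -0.42 (s.e. 0.197, edgeR adjusted p=0.221). The sign of the Esrrb value between genotypes was opposite in uninduced and induced libraries, and neither value passed. Klf2, Klf4, Zfp42, Dppa3 and Nr5a2 overlapped between genotypes after induction, with log2 fold changes from -0.69 (Dppa3) to 0.08 (Klf4).

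The clones were not alike. Of the 10 members, 6 were highest in clone 11 and 4 in clone 8 when uninduced, and 9 were lowest in clone 15. Dppa3 was the exception, lowest in clone 11 at 37.8 TPM. Wild-type libraries were similarly uneven, with 8 members highest in number 1 and 9 lowest in number 3. Over all 12 libraries, Prdm14 spanned 18.0-fold, Tbx3 15.9-fold and Tfcp2l1 13.4-fold, while Zfp42 spanned 2.14-fold.

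Reads on introns, which come largely from transcripts not yet spliced, gave a second measure of the same libraries, with few reads for most members. Between uninduced genotypes, the intron reads, as CPM (counts scaled by the gene reads of each library), were separate upwards for 3 members, Tfcp2l1, Tbx3 and Zfp42, against 18.8% of the 14251 genes tested with an intron read. Tfcp2l1 had intron and exon ratios of 3.70 and 3.99, and Tbx3 of 5.38 and 5.98. Nanog and Klf4, which were separate in TPM, overlapped in intron reads, with smaller intron than exon ratios (2.08 and 2.92 for Nanog, 1.14 and 1.66 for Klf4). Esrrb, also separate in TPM, overlapped in intron reads too, with ratios of 2.10 and 1.97. Zfp42 differed, with an intron ratio of 2.24 beside an exon ratio of 1.22. Its introns were at 9.14, 6.62 and 7.18 CPM in wild-type 1, 2 and 3 and 22.9, 11.8 and 16.6 in clones 8, 11 and 15, and they made up 8.70% to 30.2% of its gene reads. For induction in wild-type cells, the intron ratio was 6.95 for Tbx3 (exon ratio 4.91) and 3.83 for Esrrb (exon ratio 3.14). The ranges were separate upwards for both and for Klf4 (intron ratio 2.06), Nr5a2 (2.02) and Zfp42 (1.65), that is, for 5 members, against 2049 of 13667 genes (15%). For induction in the clones they were separate upwards for 3 members, Esrrb (intron ratio 1.46), Klf4 (1.97) and Tfcp2l1 (1.56), against 3.57% of genes, and overlapped for Tbx3 (1.62). Tbx3 introns had as few as 3 reads in a library, whereas those of Esrrb had 72 to 711. At least 99.8% of the gene reads of each member mapped uniquely in every library.

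Nanog (ENSMUSG00000012396, 122707489 to 122714633, forward strand) and Dppa3 (ENSMUSG00000046323, 122626410 to 122630272, forward strand) lie side by side on chromosome 6 of GRCm38. In uninduced clones 8, 11 and 15 the log2 ratio to the wild-type mean was 1.98, 1.65 and 0.91 for Nanog and -0.08, -1.55 and -0.49 for Dppa3. Neighbours within 1 Mb did not share one direction. Slc2a3, a glucose transporter next to Nanog, had log2 ratios of 2.06, 0.19 and 2.10, and Foxj2 of 1.70, -0.24 and 1.56. Phc1, a Polycomb subunit, was lower in all 3 clones at -1.16, -1.07 and -0.81, and Gdf3, a TGFβ ligand, at -0.82, -0.24 and -1.04. M6pr, Rimklb, Mfap5, Apobec1 and Necap1 had negative values in clone 11 and positive ones in clones 8 and 15.

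Chromosome 6 as a whole was lower in clone 11. The median log2 ratio of its 527 expressed genes was -0.57 there, below those of the 18 other autosomes of that clone, which ran from -0.08 to 0.54. In clones 8 and 15 the chromosome 6 medians were 0.13 and 0.06, where those of the other autosomes ran from 0.02 to 0.64 and from 0.06 to 0.83. Chromosome 6 was thus at the low end of the autosomes in clone 15 too. Nanog in clone 11 was therefore high on a chromosome that was low, and Dppa3 was low beyond it. The part of the chromosome-wide shift in either value was not tested. Around the other members, the median log2 ratio of neighbouring genes ran from -0.22 to 0.96, the highest being that of Tfcp2l1 in clone 11, where Tfcp2l1 itself was at 2.20. Near Tbx3 it was 0.14, -0.14 and -0.12, with Tbx3 at 2.83, 2.60 and 2.23.

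**Figure D4:**
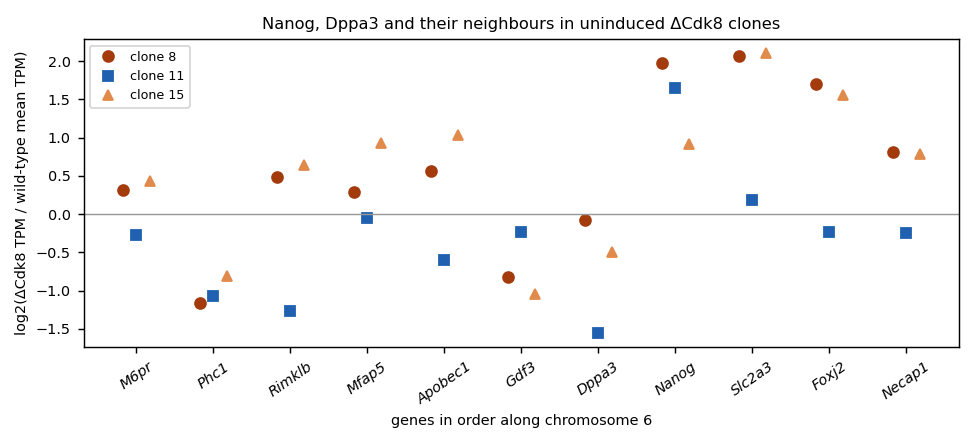
Log2 ratio of the TPM in uninduced ΔCdk8 clones 8, 11 and 15 to the wild-type mean for Nanog, Dppa3 and the 9 neighbouring genes with a mean of at least 1 TPM, in their order along chromosome 6. Nanog lies at 0.91 to 1.98 and Dppa3 at -1.55 to -0.08, with Slc2a3 high in clones 8 and 15 but not in clone 11.

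Across the 12 libraries, which are 6 lines or numbers each sampled at 2 states, the members varied together in part. Pearson's r of log2(TPM+1) was above 0 in 36 of 45 pairs of members, with a median of 0.632. The closest pairs were Nanog with Tfcp2l1 (0.940), Tfcp2l1 with Tbx3 (0.926) and Zfp42 with Nr5a2 (0.882). Dppa3 had the lowest values, -0.735 with Klf2 and -0.723 with Klf4. Of 12130 genes with a mean of at least 1 TPM, 14 had a higher r with Nanog than Tfcp2l1 had, and the median over all of them was 0.12. The 5 genes most like Nanog were Pdgfa (0.979), a growth factor, Slc52a3 (0.964), a riboflavin transporter, Zbtb32 (0.956), a BTB zinc finger protein, Notch4 (0.956), a receptor, and Mapt (0.955), the microtubule-associated protein tau. Pdgfa was at 5.79 to 14.4 TPM in uninduced wild-type and 21.3 to 35.4 TPM in uninduced ΔCdk8 libraries.

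The signalling inputs to the naive factors were looked at through lists of their components. Of the 8 genes for LIF and STAT3 input (ligand, receptors, Jak1, Stat3 and the targets Socs3, Pim1 and Pim3), none passed in edgeR in any comparison, with or without the block, where edgeR called 0.0% of all genes in 4 of 5 comparisons without the block and at most 2.48% in 1 direction with it. At an unadjusted p under 0.05 between uninduced genotypes, 5 of the 8 were counted, against 20.4% of all genes. Their median log2 fold change was 0.27 in uninduced ΔCdk8 over wild-type cells and 0.32 for induction in wild-type cells, beside 0.03 over all genes in both. Lif, the ligand, had the largest values, -1.12 and 1.08 (edgeR adjusted p=0.200 and 0.167). Pim1, a kinase gene, was past the threshold by DESeq2 between induced genotypes (log2 fold change 1.17, adjusted p=5.17e-05).

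Of the 7 genes for GSK3 and TCF input, the medians were 0.01 and 0.06, and Lef1, a TCF-family partner of β-catenin, stood apart. It was at 31.4, 68.4 and 47.6 TPM in uninduced and at 1.80, 12.4 and 8.99 TPM in induced wild-type 1, 2 and 3. The log2 fold change was -2.62 (edgeR adjusted p=0.0813), and with the block it fell by 2.86 on the log2 scale (adjusted p=0.00577). Clones 8, 11 and 15 had 1.64, 14.7 and 3.94 TPM uninduced, below every uninduced wild-type library, and 0.243, 2.33 and 0.711 TPM induced. In the clones Lef1 fell by 2.55 with the block (edgeR adjusted p=1.05e-08). Its difference between genotypes when uninduced was -2.88 (edgeR adjusted p=0.154, DESeq2 adjusted p=0.00137). None of the 13 genes for FGF and ERK input passed in any comparison by edgeR or by DESeq2 without the block, but these called at most 3.83% of all genes in 1 direction, so the count is near that of all genes. Their medians were -0.18 between uninduced genotypes and -0.01 for induction in wild-type cells. The largest values were -0.71 for Spry4, an inhibitor of the pathway, and 0.87 for Etv4, an ETS factor downstream of it.

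Of the 8 core pluripotency genes, 7 had a negative value in uninduced ΔCdk8 cells, with a median of -0.32, against 7010 of 14646 genes. Pou5f1 was at -0.17 and Sox2 at 0.32. At an unadjusted p under 0.05 in edgeR, 1 of the 8 was counted (Lin28a), against 20.4% of all genes. The counts of the GSK3 and TCF, FGF and ERK and other naive lists were 1 of 7, 3 of 13 and 5 of 15. Lin28a, an RNA-binding protein that blocks let-7 maturation, was at 303.8 to 528.4 TPM in uninduced wild-type and 111.6 to 232.0 TPM in ΔCdk8 libraries (log2 fold change -1.42, adjusted p=0.140 in edgeR and 0.00306 in DESeq2). Tdgf1, a Nodal co-receptor, had a log2 fold change of -1.01 for induction in wild-type cells (adjusted p=0.0316 in edgeR and 3.6e-05 in DESeq2). The 15 other naive state genes had medians of 0.38 in both comparisons. Tcl1, a coactivator of Akt, was at 7.85 to 19.2 TPM in uninduced wild-type and 42.7 to 68.9 TPM in ΔCdk8 libraries, with a log2 fold change of 1.87 (adjusted p=0.124 in edgeR and 0.000143 in DESeq2). Pecam1, an adhesion molecule, rose on induction in wild-type cells with the block (1.20, edgeR adjusted p=0.00116).

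The 12 formative and primed epiblast genes had the lowest medians, -1.45 between uninduced genotypes and -1.03 for induction in wild-type cells, where 8 and 10 of them were negative. By DESeq2, 6 were lower in uninduced ΔCdk8 cells, namely Fgf5, Otx2, Pou3f1, Zic2, Dnmt3a and Dnmt3b, and Lefty2 was higher, against 0.833% of all genes called lower, while edgeR called 0 of the 12 (0.0% of all genes), with 8 at an unadjusted p under 0.05 (20.4% of all genes). Otx2, a factor of the formative state, was at 27.2, 92.9 and 77.0 TPM in uninduced wild-type and at 17.5, 29.1 and 12.9 TPM in ΔCdk8 libraries. Dnmt3b, a de novo DNA methyltransferase, was at 548.4 to 997.2 and 276.6 to 309.6 TPM. On induction in wild-type cells with the block, Lefty1, Lefty2, Otx2, Pou3f1 and Sox3 fell in edgeR, with log2 fold changes of -3.85, -2.65, -1.23, -1.27 and -3.68, against 2.48% of all genes. In the clones with the block, Fgf5, Lefty1 and Otx2 fell, with log2 fold changes of -1.96, -1.79 and -1.09, against 1.27% of all genes. By DESeq2 with the block, Lefty1 was called, Otx2 was not (adjusted p=0.0476) and Fgf5 had no adjusted p. Lefty1, Lefty2, Nodal and Cdh2 were the 4 of the list with positive values between uninduced genotypes. Lefty2, an inhibitor of Nodal, was at 3.54 to 10.5 TPM in uninduced wild-type and 23.2 to 84.0 TPM in ΔCdk8 libraries, highest in clone 11. Lefty1, its close relative, was at 5.62 to 7.14 TPM in uninduced wild-type and at 6.07, 76.8 and 10.03 TPM in clones 8, 11 and 15 (log2 fold change 2.14, edgeR adjusted p=0.256). The interaction with the block called Lefty2 (1.87, where 0.78% of genes had a positive difference past the threshold) and Nodal (-1.16).

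Between induced genotypes, the medians of the formative and primed, core, FGF and ERK, GSK3 and TCF, LIF and STAT3 and other naive lists were -0.94, -0.38, -0.38, -0.11, 0.00 and 0.10, beside 0.03 over all genes. None of their genes passed in edgeR. By DESeq2, Lefty1 (log2 fold change 4.29), Lefty2 (4.74), Tcl1 (1.36) and Pim1 were higher, and Zic2 (-2.48) and Lef1 (-2.89) were lower, against 3.83% and 1.98% of all genes. Of the core list, Foxd3, a forkhead repressor, had the largest value at -1.34, of the FGF and ERK list Map2k2, a MEK kinase, at -0.73, and of the LIF and STAT3 list Lif at -1.82 (edgeR adjusted p=0.119). For induction in the clones, the largest values by edgeR without the block were 0.38 for Lif, -2.61 for Lef1, 0.59 for Etv4, -0.57 for Tdgf1, 0.55 for Pecam1 and -1.79 for Fgf5. For the difference of induction they were -0.67 for Lif, 0.45 for Tcf7, 0.49 for Egr1, 0.45 for Tdgf1, -0.79 for Sox15 and 3.30 for Sox3, and none passed.

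**Figure D5:**
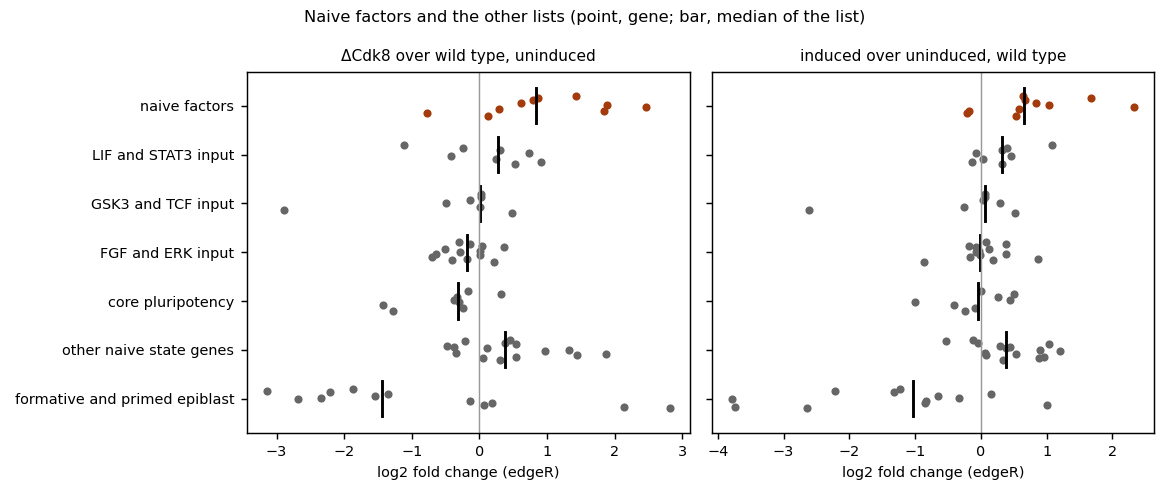
Log2 fold change (edgeR, without the block) of each gene of the naive factors (red) and of 6 other lists (grey), between uninduced genotypes on the left and for induction in wild-type cells on the right, with the bar at the median of the list. The medians of the naive factors are 0.83 and 0.66 and those of the formative and primed epiblast genes -1.45 and -1.03.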

How the data were processed

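RNA of 12 libraries was analysed, 3 in each of 4 groups taken from the sample titles. Per the labels and the study's methods, polyadenylated RNA was made into stranded libraries. With the CLC Genomics Workbench, the authors aligned untrimmed reads to GRCm38. For each library the authors deposited a table of 25759 genes with raw read counts on genes, exons and introns, and replicates were not pooled. The TPM values deposited by the authors equal exon reads over exon length, scaled to the same total in each library (largest relative difference 0.000196). Other columns (RPKM and read shares) were not used here.

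Total gene reads were tested in R 4.3.3 with the quasi-likelihood test of edgeR 4.0.16, after TMM normalisation. Its filterByExpr was run at a count of 10 and a total of 15. P-values, all two-sided, were adjusted by Benjamini-Hochberg over every gene tested, and calls needed an adjusted p under 0.01 together with more than a 2-fold change. The 95% intervals use the t quantile at the degrees of freedom of edgeR's quasi-likelihood test. TPM levels, ratios and correlations were computed with Python 3.11.15, pandas 2.3.3 and scipy 1.17.1, with a pseudocount of 1 in correlations and of 0.1 in ratios to the wild-type mean along chromosomes, and figures with matplotlib 3.10.9. No permutation p is quoted, since 3 against 3 libraries cannot go below 0.1 in an exact two-sided test.

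Libraries of 1 clone come from the same line. Wild-type libraries of the same number deviated together from their group means (r 0.417 to 0.616, against -0.496 to 0.247 for different numbers), as did the clones (0.711 to 0.823, against -0.600 to 0.0615), so the numbers were taken as pairs, and the fit with the replicate number as a block is given beside a result where it changed a call or the number of calls. The sources do not say whether wild-type numbers are separate cultures, so that p-values may measure technical spread alone.

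The members, the gene lists and the tests were chosen with earlier results of these data known. Named in the text are the 10 members, the genes of each list that passed by edgeR without or with the block or by DESeq2 without it, the gene of each list with the largest change in each comparison (edgeR, without the block), expressed genes within 1 Mb of Nanog, and the 5 genes most correlated with it. Markers are named for the checks of cell type. Alternatives were DESeq2 1.42.0, other size factors, filters and read types, the block, 1 fit over all libraries and leaving out each replicate. On simulated counts for the uninduced comparison (14646 genes, 200 of them changed 4-fold at a dispersion of 0.05), edgeR recovered 97.5% with 3 false calls, and for the interaction (15137 genes) 79%, or 80% with the block. The common dispersion of the data was 0.115 and 0.124 in these fits. Raw reads were not analysed here.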

Additional observations from a re-analysis of the deposited data

Results flagged for a closer look

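The effect of induction on Tbx3 differed between the genotypes in the fit with the replicate number as a block, with a difference of -1.64 on the log2 scale (s.e. 0.165, adjusted p=0.00132 by edgeR), ΔCdk8 minus wild type. Every wild-type pair (3.98-fold, 5.50-fold and 5.84-fold) had a larger ratio than every clone (1.57-fold, 1.63-fold and 1.66-fold). The uninduced levels were unlike, and mean TPM went from 2.88 to 14.1 in wild-type and from 17.6 to 28.4 in ΔCdk8 libraries. A difference of the rise in TPM was not tested. Without the block the difference was -1.61 (s.e. 0.388, adjusted p=0.464) and did not pass. With the block it passed when wild-type 1, 2 or 3 or clone 11 was left out, and not without clone 8 (-1.66, adjusted p=0.0165) or clone 15 (-1.65, adjusted p=0.0163).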

How the results depend on the processing

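The number of naive factors past the threshold changed most with the choice of test and with single wild-type libraries. Between uninduced genotypes it was 0, against 2 by DESeq2 and 1 with all 12 libraries in 1 fit, and between induced genotypes 0, against 2 by DESeq2. For induction in wild-type cells it was 1, against 2 by DESeq2, 2 by DESeq2 with the block, and 0 to 3 when a replicate was left out (0 to 5 with the block). For induction in ΔCdk8 cells it was 0 in every setting run. For the difference of induction it was 0, and 1 with the replicate block, whether by edgeR, with TMM over autosomal genes, with unique gene reads or by DESeq2, and 0 to 4 when replicates were left out with the block. The 4 were Esrrb, Klf2, Tfcp2l1 and Tbx3, without wild-type 1.

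Genes called over all genes moved likewise, from 162 to 662 by DESeq2, 553 with the block and 566 without wild-type 1 for induction in wild-type cells, and 0 without wild-type 2 or 3. The block gave 208 in place of 0 for induction in ΔCdk8 cells and 151 in place of 0 for the difference. No paired analysis was possible because wild-type numbers and clone numbers are not shared, for the 2 comparisons between genotypes. The combinations with the block, other than the block in edgeR itself, were added after seeing the data.

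Of the members' log2 fold changes, 878 kept their direction and side of the threshold, 25 newly passed, 3 no longer passed and 14 changed sign. Changes of sign came from leaving out a replicate. For uninduced genotypes, Klf2 ranged from -0.53 to 1.24 and Nr5a2 from -0.20 to 0.32. For induced genotypes, Klf2 ranged from -1.66 to 0.49, Klf4 from -0.29 to 0.36 and Zfp42 from -0.16 to 0.04. Upon induction in ΔCdk8 cells, Prdm14 ranged from -0.07 to 0.36 (-0.02 to 0.44 with the block) and Nr5a2 from 0.00 to 0.19. The difference for Dppa3 ranged from -0.08 to 0.26 (-0.13 to 0.38 with the block). Prdm14 had as few as 48 reads in a library, which limits its precision. The causes of these changes were not tested.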
